A study of Mus musculus with 35 samples.

Results

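The comparison described here sets the aorta of EKO/hA-I mice against that of wild-type (WT) mice after 6 weeks of a Western diet, and it rests on 6 of the 35 libraries in the series, 3 per genotype, chosen by the genotype, diet and duration in the library titles. EKO mice lack apolipoprotein E (APOE), and EKO/hA-I mice are EKO mice that also overproduce human apolipoprotein A-I (apoA-I). All animals are labelled C57BL/6, started the high-fat, cholesterol-containing diet (TD.88137) at 8 weeks of age and were killed 6 weeks later. The aorta was taken whole, from its root down to where the iliac arteries branch, after the blood had been flushed out and the surrounding fat trimmed away, and its total RNA was sequenced. Diet and age were the same in both groups, but EKO/hA-I differed from WT in 2 ways at once, the loss of APOE and the human transgene. The 3 libraries of EKO mice on the same diet for 6 weeks are therefore given beside the results where they separate the changes. The labels used here do not name the promoter of the transgene, the tissue that makes the human protein or the sex of the animals, and the human transcript was not analysed here.

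APOE sits on the remnants of triglyceride-rich lipoproteins and lets the liver take them up, so mice without it carry very high plasma cholesterol and form plaques on a Western diet. ApoA-I is the main protein of high-density lipoprotein (HDL), which accepts cholesterol from cells through the transporters ABCA1 and ABCG1. An early plaque gathers macrophages that load cholesterol esters and become foam cells, while the outer coat of the vessel, the adventitia, holds fibroblasts, resident macrophages, nerves and vasa vasorum. The series asks how the amount of apoA-I bears on immune, lysosomal and sphingolipid genes of the aortic wall in such mice.

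Each value below is a gene's normalised signal as the authors deposited it, in units that add to between 9.402e+05 and 1.065e+06 per library in the 6 libraries compared. The spacing of the lowest values implies 6.856e+06 to 1.711e+07 reads behind those libraries, and 55 to 222 genes were at 0 in each. A log2 difference is taken on log2(value + 1) as EKO/hA-I minus WT, so it understates the change of genes near 0, and its error is the standard error of the fit. Tests are limma's moderated test over 14157 genes and all 12 groups of the series, with Benjamini-Hochberg adjusted p, two-sided, and a gene is said to have risen or fallen only where that p was below 0.05. Both genotypes compared held 3 libraries. The labels do not say how the animals were housed or processed, so the tests weigh a difference against the scatter of these libraries alone, part of which may be technical. In a whole aorta, fewer cells of a type and less RNA per cell cannot be told apart.

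The tissue label held. Transcripts of the contractile smooth muscle genes Acta2 and Myh11 were among the abundant ones in every library, with Acta2 at 5494, 5172 and 8710.0 in EKO/hA-I and 2965, 8378 and 6524 in WT. Tissues that lie beside the aorta differed between the groups as well. The summed signal of 12 brown adipocyte genes, which mark heat-producing fat, was 2807, 5122 and 6570 in ascending order in EKO/hA-I and 8218, 10060.0 and 16450.0 in WT, so all WT libraries held more of them. The 15 sympathetic neuron genes summed to between 189.8 and 1207 in EKO/hA-I and between 22.72 and 61.28 in WT. All 15 had higher values in every EKO/hA-I library than in any WT library, where 20.1% of all genes did. None of the 15 passed the test. Skeletal muscle genes summed to between 83.03 and 5829 in EKO/hA-I and between 41.77 and 69.13 in WT, with the highest sum in EKO/hA-I replicate 2. Cardiac muscle genes were high in EKO/hA-I replicate 1 alone, where the heart myosin Myh6 stood at 2128 against 3.80 to 33.0 in the other 5 libraries, so the level of the whole list rested on that library. Y-linked transcripts were missing from WT replicate 1 and EKO/hA-I replicate 2, so each group held 1 library without them.

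**Figure D1:**
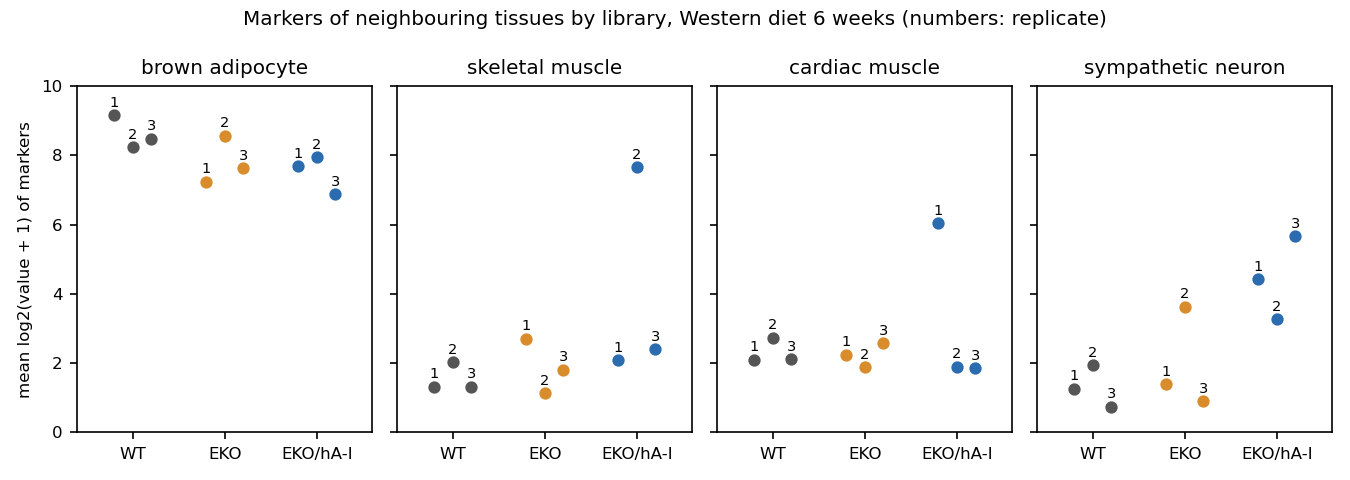
Mean log2(value + 1) of the brown adipocyte, skeletal muscle, cardiac muscle and sympathetic neuron gene lists in each library on the Western diet for 6 weeks, by genotype. The brown adipocyte mean ran from 8.24 to 9.16 in WT and from 6.87 to 7.95 in EKO/hA-I, and the neuron mean from 0.75 to 1.95 in WT and from 3.26 to 5.67 in EKO/hA-I.

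Across all genes, 2388 of 14157 (16.9%) passed the test. Of these, 1132 rose in EKO/hA-I (8% of the genes tested) and 1256 fell (8.87%), but the rises were larger. A rise of at least 1 log2 unit was seen for 588 genes and a fall of that size for 107, and the median difference was 1.02 among the genes that rose and -0.54 among those that fell. The 3 values of a gene lay wholly apart from the other 3 in 39.5% of all genes, higher in 20.1% and lower in 19.4%, and 34.1% of genes had an unadjusted p below 0.05. A lack of overlap in a gene named below is therefore a common trait in these data. The number of calls was smaller once neighbouring tissue entered the model. Adding the brown adipocyte mean to the fit as a term left 603 genes (4.26%), 327 of them higher (2.31%) and 276 lower (1.95%), and adding 4 tissue terms (brown adipocyte, skeletal muscle, cardiac muscle and sympathetic neuron) left 430 (3.04%), 315 higher (2.23%) and 115 lower (0.812%). The brown adipocyte, skeletal muscle and neuron terms did not overlap between genotypes in the 6 libraries. The cardiac term was high in EKO/hA-I replicate 1 alone. A term that moves with genotype can also remove a difference that belongs to genotype, and the part of each tissue in the count was not tested beyond that. Leaving out WT replicate 1, the library richest in brown adipocyte genes, gave 572 calls, leaving out EKO/hA-I replicate 3, the poorest, gave 892, and leaving out EKO/hA-I replicate 1 gave 1268. WT replicate 1 also had the fewest inferred reads of all 35 libraries (6.856e+06) and the most genes at 0 (222). It lacked Y-linked transcripts as well, and which of these traits bears on the count was not tested. A fit of the 6 libraries alone gave 671.

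**Figure D2:**
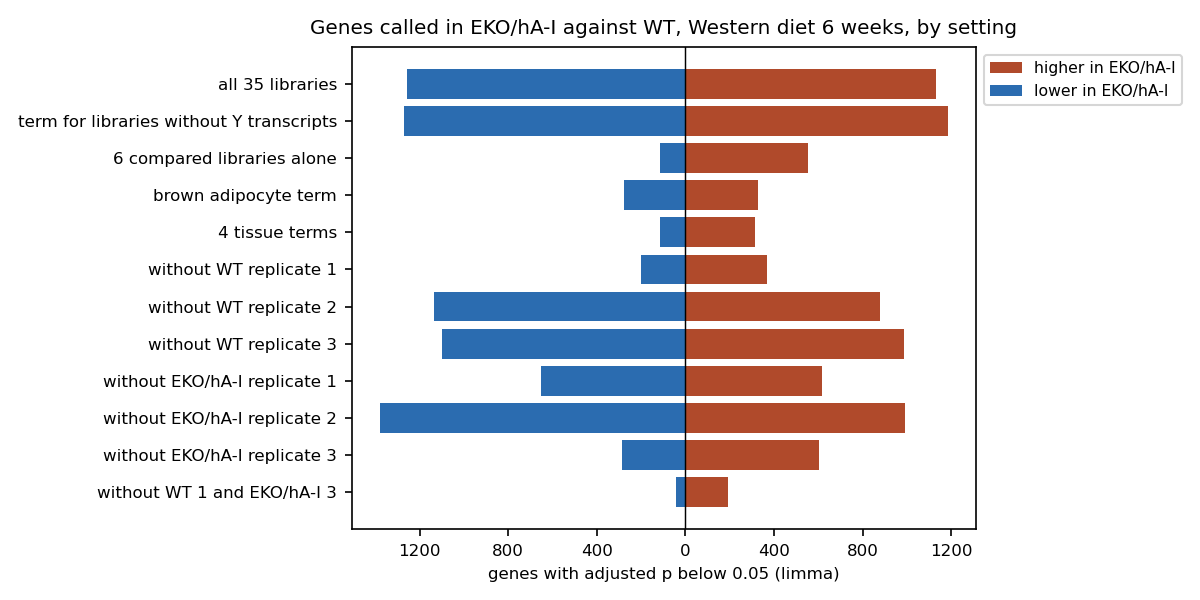
Number of genes that rose (bars to the right) or fell (bars to the left) in EKO/hA-I against WT at an adjusted p below 0.05, in the fit of all 35 libraries and under 11 other settings (terms added, or libraries left out). The total runs from 233 without WT replicate 1 and EKO/hA-I replicate 3 together to 2457 with the term that marks libraries lacking Y-linked transcripts, and both sides are shorter with the brown adipocyte term.

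A gene is called stable below where it also passed without each of the 6 libraries in turn, with the brown adipocyte term, with the 4 tissue terms and in the 6 libraries alone. That left 167 genes, 143 higher and 24 lower in EKO/hA-I. Each other gene named below as risen or fallen lost its call under at least 1 of those settings.

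The deleted gene checked the labels. Apoe stood at 11.1, 6.19 and 12.4 in EKO/hA-I replicates 1 to 3, at 16.0, 15.7 and 11.7 in EKO and at 815, 438 and 416 in WT, with no overlap between EKO/hA-I and WT. The log2 difference was -5.65 ± 0.31 (SE; adjusted p = 3.5e-12), and Apoe was stable. Apoc1, the gene next to Apoe and a small apolipoprotein that slows lipoprotein uptake, stood at 9.52, 11.7 and 5.03 in EKO/hA-I and 172, 81.9 and 67.2 in WT. It fell by 3.42 ± 0.48 (adjusted p = 0.000167), was stable, and stood at 7.20, 18.2 and 5.95 in EKO, so the same low level was present without the transgene. In a list of 10 measured genes made up of Apoe and its neighbours on chromosome 7, 2 rose and 3 fell, and the falls include Apoe itself and Apoc1. Other members that passed had smaller differences, such as Ercc1, a DNA repair nuclease subunit (-0.49), and Relb, a subunit of NF-kB (0.69). Mouse Apoa1, the gene for the animal's own apoA-I, was barely present in the aorta. It read 0.997, 1.16 and 0.850 in EKO/hA-I and 3.49, 7.64 and 0.0934 in WT, and its difference of -0.80 ± 0.52 did not pass (adjusted p = 0.273).

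**Figure D3:**
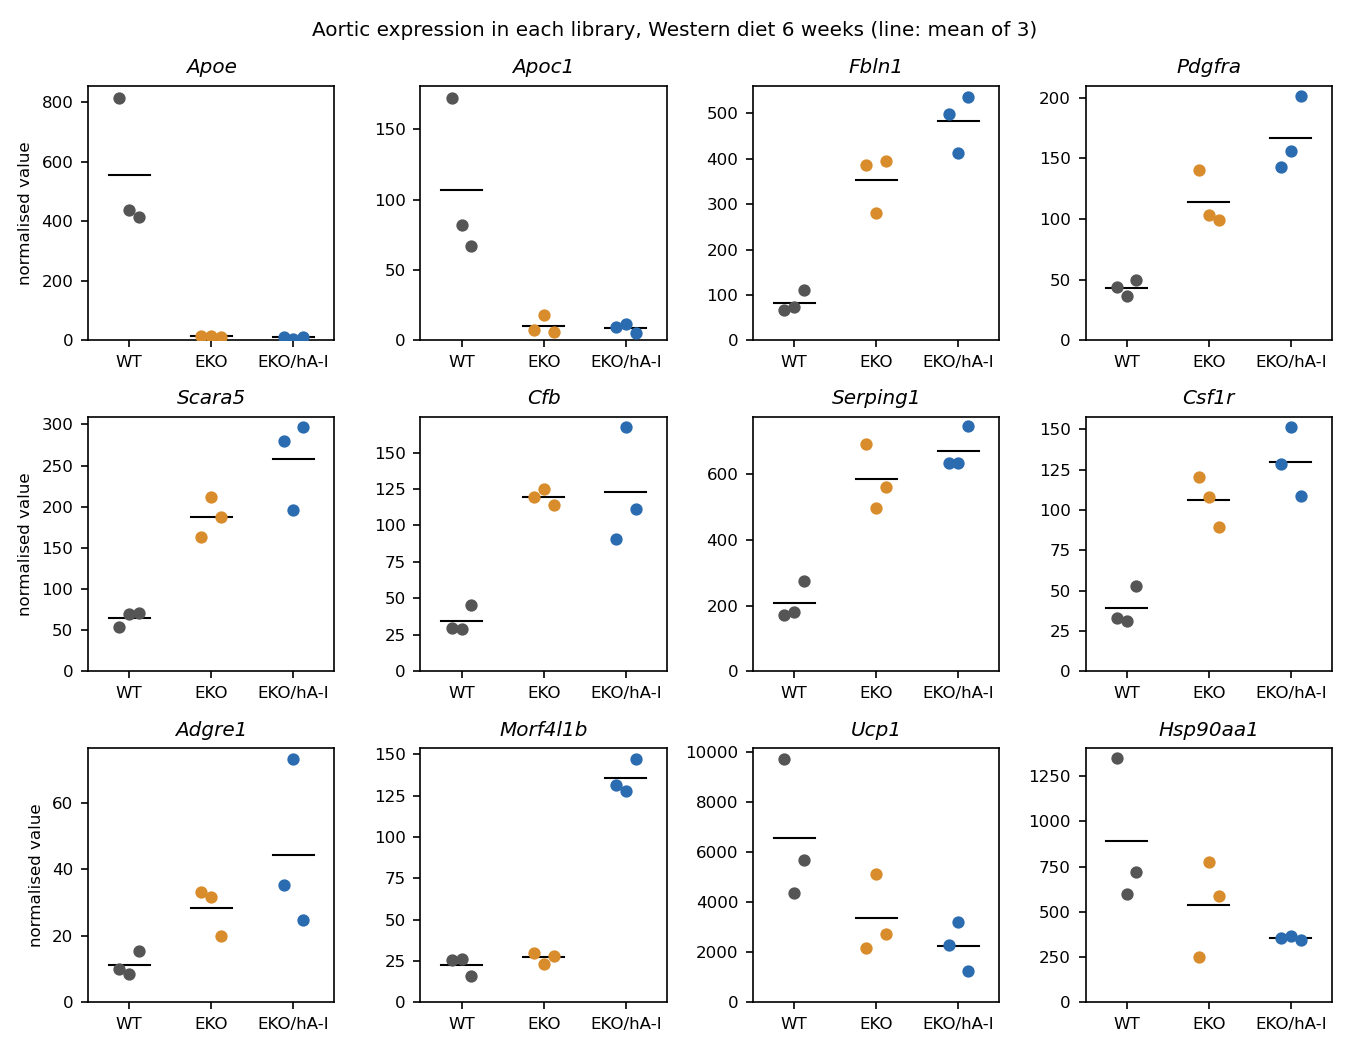
Normalised signal of 12 genes in each library of WT, EKO and EKO/hA-I mice on the Western diet for 6 weeks, on linear axes from 0, with a line at the mean of 3 libraries. Fbln1, Pdgfra, Scara5, Cfb, Serping1, Csf1r and Adgre1 lie higher in every EKO/hA-I library than in any WT library, Apoe and Apoc1 are near 0 in both genotypes without APOE, and Morf4l1b is high in EKO/hA-I alone.

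Most genes of adventitial fibroblasts rose. Of 14 measured, 12 rose and none fell, with a median log2 difference of 1.445 against 0.001 over all genes. Their summed signal was 7595 to 9322 in EKO/hA-I, 2945 to 3747 in WT and 6147 to 8092 in EKO. Pdgfra, the receptor for platelet-derived growth factor that marks these cells, stood at 143, 156 and 202 in EKO/hA-I and at 43.7, 36.7 and 49.5 in WT. The groups did not overlap, and Pdgfra rose by 1.92 ± 0.26 (adjusted p = 0.000157). Scara5, a ferritin receptor, stood at 279, 196 and 297 against 54.2, 69.4 and 71.1 and rose by 1.96 ± 0.27 (adjusted p = 0.000167). Cd248, the stromal glycoprotein endosialin, rose from 29.6, 35.5 and 47.6 in WT to 113, 141 and 168 in EKO/hA-I, a difference of 1.88. The small proteoglycan decorin, encoded by Dcn, rose by 1.63, from 415, 452 and 601 to 1564, 1272 and 1694. In each of these genes the lowest EKO/hA-I library lay above the highest WT library, as in 20.1% of all genes. Pdgfra, Cd248, Dpt, Serpinf1, Dcn, Scara5 and Gsn were stable. The list counted 8 rises without WT replicate 1 and 8 without EKO/hA-I replicate 3, and 7 with the brown adipocyte term, where its median was 1.1.

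The extracellular matrix moved less evenly. Of 24 collagen and matrix genes, 9 rose and none fell (median 0.879), of 17 elastic fibre genes 5 rose and none fell (median 0.909), and of 23 matrix proteases and inhibitors 8 rose and 2 fell (median 0.929). Fbln1, which encodes the elastic fibre protein fibulin-1, stood at 499, 412 and 537 in EKO/hA-I, 386, 282 and 395 in EKO and 66.5, 73.0 and 111 in WT, and rose over WT by 2.54 ± 0.41 (adjusted p = 0.000566). Efemp1, a related fibulin, rose by 1.44 ± 0.30, from 29.4, 17.2 and 17.9 to 51.4, 71.0 and 54.6. Both fibulins were stable and without overlap, which the rule for naming Fbln1 required. Mmp2, a gelatinase made by fibroblasts, stood at 222, 266 and 234 against 51.3, 53.1 and 77.5 in WT and rose by 1.99 ± 0.31 (adjusted p = 0.000466). Timp4, an inhibitor of such proteases, went the other way. It fell from 67.5, 116 and 94.8 in WT to 26.9, 27.6 and 14.9 in EKO/hA-I, by 1.97 ± 0.34 (adjusted p = 0.000818), with 16.7, 53.2 and 41.3 in EKO. Mmp2 and Timp4 were stable, as was Col14a1, the gene of a collagen that coats fibrils (285, 516 and 465 against 101, 126 and 166, a difference of 1.66). The main fibrillar collagen gene Col1a1 read 1669, 2624 and 3040.0 against 482, 819.5 and 1107. Its rise of 1.64 ± 0.43 (adjusted p = 0.0123) was not stable, since its adjusted p was 0.194 with the brown adipocyte term and up to 0.102 without a single library. The collagen list counted only 1 rise without WT replicate 1, 1 without EKO/hA-I replicate 3 and 5 without EKO/hA-I replicate 2. With the brown adipocyte term it held 1 rise and 1 fall, and its median came to 0.19. The elastic fibre list counted 3 rises without WT replicate 1, and the protease list counted 4 without WT replicate 1 and 5 without EKO/hA-I replicate 1 or replicate 3. Elastin itself, Eln, ranged widely, 1684, 2349 and 5796 in EKO/hA-I and 1042, 1979 and 1679 in WT, and did not pass (adjusted p = 0.246).

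Among the other large rises were further genes that were stable and low in all WT libraries. Nt5e, the ectoenzyme CD73 that makes adenosine, stood at 40.0, 31.8 and 38.6 in EKO/hA-I, 20.6, 10.2 and 8.77 in EKO and 4.40, 6.23 and 6.63 in WT, and rose over WT by 2.49 ± 0.31 (adjusted p = 2.85e-05). Its difference from EKO was 1.50, with an adjusted p of 0.0622, just outside the threshold. Bicc1, an RNA-binding protein, rose by 2.31 ± 0.29, from 10.3, 9.30 and 13.6 to 53.0, 52.6 and 70.5 (adjusted p = 3.64e-05). Spock2, a proteoglycan of the matrix, rose by 2.61 ± 0.51, from 9.54, 14.1 and 14.4 to 107, 39.6 and 126 (adjusted p = 0.00228). Its values in EKO/hA-I varied more than those of Bicc1, yet the lowest exceeded every WT value, which the rule for naming it required.

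Most complement genes rose. Complement is the plasma and tissue cascade that tags particles and cells for removal, and C1q, C1r and C1s start its classical arm. Of 16 measured genes, 12 rose and none fell, and the median was 1.474. The list's summed signal was 4889 to 6380 in EKO/hA-I, 1575 to 3508 in WT and 4783 to 5978 in EKO. The 250 bases before the start of 3 of the genes that rose are printed because they represent both kinds of member, the C1q chains made by macrophages and C1r made largely by stromal cells, and the capitals mark the purine box GAGGAA, read on either strand. The sequences are from RefSeq, build GRCm38.p6, which is not the build of the deposited table, and are written 5′ to 3′ on the gene's strand.
C1qb, chr4:136886201-136886450, minus strand: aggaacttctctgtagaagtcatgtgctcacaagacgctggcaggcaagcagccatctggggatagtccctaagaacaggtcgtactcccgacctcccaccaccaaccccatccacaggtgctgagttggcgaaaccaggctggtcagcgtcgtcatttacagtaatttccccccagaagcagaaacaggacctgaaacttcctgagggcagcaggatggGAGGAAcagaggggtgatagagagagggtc
C1qc, chr4:136892915-136893164, minus strand: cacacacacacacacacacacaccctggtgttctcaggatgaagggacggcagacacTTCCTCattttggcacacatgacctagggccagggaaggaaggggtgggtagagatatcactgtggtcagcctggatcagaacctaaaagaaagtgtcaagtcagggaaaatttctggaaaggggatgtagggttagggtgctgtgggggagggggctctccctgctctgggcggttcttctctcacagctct
C1ra, chr6:124512371-124512620, plus strand: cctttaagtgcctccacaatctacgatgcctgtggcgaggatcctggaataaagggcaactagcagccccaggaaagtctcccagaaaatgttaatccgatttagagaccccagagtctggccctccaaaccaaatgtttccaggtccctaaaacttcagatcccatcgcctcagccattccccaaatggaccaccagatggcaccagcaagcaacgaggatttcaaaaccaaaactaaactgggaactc
Promoters were held for 10 complement genes. GAGGAA, the core letters read by the PU.1 family of macrophage factors, was found in 2 of them (20%), in 8 of 14 macrophage genes (57.1%), in 3 of 8 fibroblast genes (37.5%) and in 23.1% of all 27025 promoters. The interferon-stimulated response element, GAAANNGAAA on either strand, was in none of the 10, in 12 of 21 genes of the interferon list (57.1%) and in 3.04% of all promoters. Of the 10 complement genes with a promoter, 6 rose: the 3 printed and C3ar1, Cfp and C3, whose promoters hold neither motif. The printed sequences therefore show GAGGAA more often than the 6 do. Matches of the 2 motifs can overlap, and a match of letters shows neither binding nor use.

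The start of the classical arm rose. C1ra stood at 169.5, 205 and 188 in EKO/hA-I and 54.2, 61.1 and 85.2 in WT and rose by 1.50 ± 0.22 (adjusted p = 0.000247), although its reads may be shared with the near-identical C1rb. C1qb read 126, 143 and 69.3 against 30.2, 27.7 and 62.1 and rose by 1.50 ± 0.36 (adjusted p = 0.00772), with an adjusted p of 0.0603 under the brown adipocyte term. In both genes every EKO/hA-I value exceeded every WT value, by a narrow margin in replicate 3 of each group for C1qb. C1qc stood at 103, 116 and 63.0 against 25.2, 27.1 and 54.3, a rise of 1.42. Further down the cascade, C2 rose by 1.84 ± 0.31 (47.8, 56.1 and 53.7 against 15.0, 11.2 and 15.9), and C4b, whose reads may be shared with C4a, by 1.61. Cfb, the protease of the alternative arm, rose by 1.79 ± 0.31, from 29.4, 28.9 and 45.5 to 90.8, 167 and 112. C3, the hub of all arms, read 2213, 2814 and 1417 in EKO/hA-I and 1495, 447 and 744 in WT. The groups overlapped, and its rise of 1.38 ± 0.45 passed only narrowly (adjusted p = 0.0359).

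An inhibitor of the cascade rose with it. Serping1, the C1 inhibitor, stood at 636, 636 and 746 in EKO/hA-I, 694, 498 and 563 in EKO and 171, 182 and 277 in WT. Its rise over WT was 1.71 ± 0.26 (adjusted p = 0.000366), and every EKO/hA-I library lay above every WT library. C1ra, C2, C4b, Cfb and Serping1 were among the stable genes of the list. The list counted 7 rises without WT replicate 1 and 7 with the brown adipocyte term, where its median was 1.37.

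Macrophage genes rose too. Of 19 measured, 14 rose and none fell (median 1.232), and the sum over the list was 882.8 to 1532 in EKO/hA-I, 368.7 to 677.3 in WT and 1094 to 1686 in EKO. Csf1r, the receptor that macrophages need to survive, stood at 129, 152 and 109 in EKO/hA-I, 121, 108 and 89.4 in EKO and 33.2, 31.0 and 53.1 in WT. It rose over WT by 1.73 ± 0.28 (adjusted p = 0.000591) and was the only stable gene of the list. Adgre1, the F4/80 antigen, read 35.2, 73.2 and 24.7 against 10.0, 8.55 and 15.4 and rose by 1.77 ± 0.41 (adjusted p = 0.00591). Neither gene overlapped between the groups, where 20.1% of all genes were wholly higher in EKO/hA-I. WT replicate 3 was the highest WT library in both. Tyrobp, a signalling adaptor of myeloid receptors, rose by 1.54 (34.1, 27.6 and 15.7 against 7.28, 4.81 and 13.4). Cd68, a lysosomal glycoprotein of phagocytes, rose by 1.80 ± 0.45, but its values overlapped, 72.8, 40.1 and 23.8 in EKO/hA-I and 8.19, 6.47 and 24.7 in WT. The list counted 5 rises without WT replicate 1, 7 without WT replicate 2, 6 without EKO/hA-I replicate 1 and 8 without EKO/hA-I replicate 2, and 8 with the brown adipocyte term, where its median was 1.373.

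The 12 genes of resident adventitial macrophages had a median of 0.983, and 5 of them rose and none fell. Stab1, a scavenger receptor, stood at 284, 330.0 and 317 in EKO/hA-I and 104, 126 and 158 in WT and rose by 1.27 ± 0.25 (adjusted p = 0.00231). Folr2, the folate receptor beta, read 22.7, 41.4 and 26.4 against 8.95, 8.96 and 13.6 and rose by 1.42. Mrc1, the mannose receptor CD206, read 78.6, 104 and 60.3 against 31.3, 25.4 and 35.3 and rose by 1.35. None of these 3 overlapped between groups, where 20.1% of all genes were wholly higher in EKO/hA-I. Stab1 and Folr2 were stable. The list counted 3 rises without WT replicate 1 and without EKO/hA-I replicate 1 or 2.

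Of the 11 genes of MHC class II, the machinery that shows peptides to CD4+ T cells, 5 rose (median 0.953). Cd74, its invariant chain, stood at 499, 458 and 260.3 in EKO/hA-I and 151, 129 and 156 in WT and rose by 1.43 ± 0.39 (adjusted p = 0.0162). The groups did not overlap in Cd74, but none of the 11 genes was stable. No gene of the list passed without WT replicate 1 or without EKO/hA-I replicate 1, 2 passed without WT replicate 2 or EKO/hA-I replicate 2, and 1 passed with the brown adipocyte term. The 28 genes of the interferon response and MHC class I had a median of 0.025 and 1 rise, H2-D1 (0.56, adjusted p = 0.0362), which shares reads with other class I genes. Among 16 genes of B and T lymphocytes none passed (median 0.257). The neutrophil and acute phase list of 12 had 1 rise, where 8% of all genes rose. This was Csf3r, the receptor for granulocyte colony-stimulating factor (1.47, adjusted p = 0.00975), which was stable.

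Of 34 cytokine, chemokine and adhesion genes, 13 rose and 1 fell (median 0.982). The rises included the endothelial selectins that slow leukocytes. Selp, P-selectin, stood at 59.2, 46.3 and 38.5 in EKO/hA-I and 8.95, 10.4 and 14.9 in WT and rose by 1.99 ± 0.43 (adjusted p = 0.00404). Sele, E-selectin, rose by 1.83 ± 0.43 (adjusted p = 0.00733). Vcam1, an adhesion molecule of activated endothelium, read 127, 121 and 84.2 against 39.6, 34.0 and 68.4, rose by 1.25 and lost its call without WT replicate 1, WT replicate 2 or EKO/hA-I replicate 1. Itgb2, the beta chain of leukocyte integrins, rose by 1.73. The chemokine Cxcl9, which is induced by interferon gamma, fell by 1.30 (adjusted p = 0.0217). None of the 34 was stable, and the list counted 2 rises without WT replicate 1, 5 without EKO/hA-I replicate 1, 7 without WT replicate 2 and 8 without EKO/hA-I replicate 2, and 1 with the brown adipocyte term.

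Lysosomal genes, named in the study's title, showed small rises. Of 50 measured, 16 rose and none fell, and the median was 0.357. Fuca1, the fucosidase of the lysosome, was steady within groups, 109, 99.5 and 101 in EKO/hA-I and 68.1, 66.6 and 72.2 in WT, and rose by 0.58 ± 0.13 (adjusted p = 0.00452). It was the only stable gene of the 50. Lgmn, a lysosomal protease, read 231, 179.8 and 141 against 69.3, 80.7 and 108 and rose by 1.08 ± 0.23, with an adjusted p of 0.0723 under the brown adipocyte term. Ctsd, the major aspartic protease, read 1714, 1539 and 1090.0 against 1423, 1143 and 1638, a difference of 0.04 that did not pass. The list counted 3 rises without WT replicate 1, 8 without EKO/hA-I replicate 1 and 9 without WT replicate 2, and 2 with the brown adipocyte term (median 0.249). In EKO against WT, 20 of the 50 rose, with a median of 0.466.

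Sphingolipid genes, also in the title, had a small median difference. Of 47 measured, 5 rose and 2 fell, and the median was 0.062, where 16.9% of all genes passed. Smpd3, a neutral sphingomyelinase, stood at 22.9, 22.1 and 30.9 in EKO/hA-I and 9.53, 6.67 and 9.37 in WT and rose by 1.47 ± 0.39 (adjusted p = 0.0136). Its groups did not overlap, but it lost its call without EKO/hA-I replicate 3 (adjusted p = 0.0688). The acid sphingomyelinase gene Smpd1 read 129, 104 and 89.4 against 138, 109 and 123, a difference of -0.21 ± 0.15, and the acid ceramidase gene Asah1 90.7, 83.2 and 85.9 against 78.4, 77.0 and 71.6, a difference of 0.19 ± 0.14. Neither passed. The list counted 3 rises without WT replicate 1 or EKO/hA-I replicate 3, and none of its members passed with the brown adipocyte term. Of the 47, 16 lay wholly higher in EKO/hA-I and 6 wholly lower, where 20.1% and 19.4% of all genes did. In EKO against WT, 11 of the 47 rose and none fell, with a median of 0.137.

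Genes that carry lipid between cells and particles moved in both directions. Of 20 HDL and lipoprotein genes, 4 rose and 3 fell (median -0.091), where 8% of all genes rose and 8.87% fell. Pltp, the phospholipid transfer protein that remodels HDL, stood at 242, 232 and 170.4 in EKO/hA-I and 72.5, 91.9 and 123 in WT and rose by 1.17 ± 0.24 (adjusted p = 0.00256). Lrp1, a receptor for APOE-bearing remnants, read 1825, 1474 and 1769 against 438, 659 and 728 and rose by 1.50 ± 0.30 (adjusted p = 0.00241). Both were stable and without overlap. Apod, a lipocalin apolipoprotein, rose by 1.75 ± 0.35. Gpihbp1, which holds lipoprotein lipase on capillaries, fell from 91.0, 124 and 91.4 in WT to 34.8, 48.2 and 22.2 in EKO/hA-I, by 1.57 ± 0.34 (adjusted p = 0.00402), and Lipg, endothelial lipase, fell by 1.39. Brown adipocyte genes were lower in the same libraries, and with their mean as a term the adjusted p was 0.0623 for Gpihbp1 and 0.143 for Lipg.

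Targets of the liver X receptor (LXR), which senses oxidised cholesterol, included 3 rises and 1 fall among 13 genes (median 0.379). Over all genes, 8% rose and 8.87% fell. Pltp and Apoc1, already described, were the stable members, and the list counted 1 rise without WT replicate 1 or EKO/hA-I replicate 1. Abcg1, which passes cholesterol to HDL, stood at 112, 58.5 and 47.6 in EKO/hA-I and 29.6, 26.5 and 37.1 in WT and rose by 1.12 ± 0.34 (adjusted p = 0.028), a call lost without WT replicate 1, WT replicate 2 or EKO/hA-I replicate 1. Abca1, the transporter that loads apoA-I itself, read 365, 306 and 175 against 262, 100.4 and 154 with overlap, and its difference of 0.75 ± 0.36 did not pass (adjusted p = 0.14). Of 23 genes of sterol synthesis and its control, 3 fell and none rose (median -0.459), where 8.87% of all genes fell, so the share is near the background. Sc5d, a late enzyme of the pathway, fell from 68.1, 52.4 and 56.1 to 27.5, 28.1 and 27.0, by 1.06 ± 0.31 (adjusted p = 0.0218), and Cyp51 and Idi1 fell by 1.11 and 1.16. None of the 3 calls was left without WT replicate 1 or without EKO/hA-I replicate 1 or 3.

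Foam cell genes were divided. Of 19 measured, 5 rose and 3 fell, where 8% of all genes rose and 8.87% fell, and the median was 0.505. Gpnmb, a glycoprotein of lipid-loaded macrophages, read 630.5, 100.4 and 144 in EKO/hA-I and 20.3, 13.2 and 200.5 in WT. The groups overlapped, WT replicate 3 lying above EKO/hA-I replicates 2 and 3, and the rise of 2.42 ± 0.77 (adjusted p = 0.0342) was lost without WT replicate 1, WT replicate 2, EKO/hA-I replicate 1 or EKO/hA-I replicate 3. Lgals3, galectin-3, rose by 1.51 with overlap as well. Spp1, osteopontin, showed the same high WT library, 206, 158 and 14.6 in EKO/hA-I and 20.8, 9.21 and 196 in WT, and did not pass (adjusted p = 0.519). Soat1, the enzyme that esterifies cholesterol for storage, rose by 0.85 (adjusted p = 0.0293). Among the falls was Cd36, a receptor for oxidised lipoproteins that fat cells and their capillaries also carry, at 1185, 1254 and 586 against 2664, 1786 and 2131 (adjusted p = 0.0465, and 0.734 with the brown adipocyte term). The list counted 0 rises without WT replicate 1 or EKO/hA-I replicate 1, 1 without WT replicate 2 or EKO/hA-I replicate 3, and 2 without EKO/hA-I replicate 2.

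The contractile genes of smooth muscle gave no call. Among 18 measured, none passed, and the list summed to between 18460.0 and 30590.0 in EKO/hA-I and between 11840.0 and 29850.0 in WT, which overlap widely. Their median was 0.21, with 16 differences above 0, but it was -0.212 without WT replicate 1, -0.695 with the brown adipocyte term and -0.429 with the 4 tissue terms, so it had no settled direction. Tagln, the smooth muscle protein SM22, read 3162, 2313 and 3680.0 in EKO/hA-I and 1607, 4058 and 2964 in WT. Of 18 genes of modulated smooth muscle and cartilage, 5 rose and none fell (median 0.651), with 2 rises without WT replicate 1, 3 without WT replicate 2 or EKO/hA-I replicate 3, and 1 with the brown adipocyte term. The stable gene of that list was Dcn, which the fibroblast list also holds.

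Among 15 endothelial genes, 1 rose and 4 fell (median -0.372), where 8% of all genes rose and 8.87% fell. Vwf, the clotting factor that endothelium stores, stood at 676, 569.5 and 595 in EKO/hA-I and 119.9, 163 and 235 in WT and rose by 1.87 ± 0.40 (adjusted p = 0.00434), with no overlap. Egfl7, a secreted factor of endothelial cells, was even within groups, 85.3, 86.2 and 95.9 against 142, 141 and 136, and fell by 0.64 ± 0.17 (adjusted p = 0.0122). Kdr, the main VEGF receptor, fell by 1.22 ± 0.42 (adjusted p = 0.0455), and Robo4 and Eng fell by 0.98 and 0.63. No fall was left without WT replicate 1, 1 was left without WT replicate 2, WT replicate 3 or EKO/hA-I replicate 3, and 2 without EKO/hA-I replicate 1, and none passed with the brown adipocyte term. The pan-endothelial genes Cdh5 and Nos3 did not pass, with Nos3 at 125, 112 and 159 against 107, 132 and 153.

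Brown adipocyte, mitochondrial and heat shock genes were lower in EKO/hA-I. Of 12 brown adipocyte genes, 3 fell (median -1.041), where 8.87% of all genes fell. Ucp1, the uncoupling protein that makes heat, stood at 2290.0, 3233 and 1248 in EKO/hA-I and 9750.0, 4360.0 and 5676 in WT. The ranges did not overlap, and Ucp1 fell by 1.57 ± 0.54 (adjusted p = 0.0451). No gene of this list passed without WT replicate 1 or without EKO/hA-I replicate 3, and 1 passed without WT replicate 3 or EKO/hA-I replicate 1. All 27 genes of mitochondrial respiration had negative differences (median -0.668). In 17 of them the groups did not overlap, where 19.4% of all genes were apart in that direction. Only 4 fell in the test, where 8.87% of all genes fell, among them Cycs, cytochrome c (-1.24, adjusted p = 0.0309). No fall was left without WT replicate 1, EKO/hA-I replicate 1 or EKO/hA-I replicate 3, 2 were left without WT replicate 2, and 9 were called without EKO/hA-I replicate 2. The 19 genes of fatty acid oxidation were all lower, with a median of -0.805 and no call. With the brown adipocyte term the medians were 0.106 for mitochondrial respiration and 0.378 for fatty acid oxidation. The brown adipocyte list itself defines that term, so its own median of 0.09 there follows from the fit.

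Heat shock genes, the chaperones that refold proteins, included 8 falls among 15 and no rise (median -0.992). Hsp90aa1, the inducible HSP90, stood at 354, 367 and 343 in EKO/hA-I and 1350.0, 597 and 723 in WT and fell by 1.23 ± 0.33 (adjusted p = 0.0138). The EKO/hA-I values were close together, and WT replicate 1 was the highest of the 6. Hspe1, the co-chaperone of the mitochondrial HSP60, fell by 1.13, Hspd1, HSP60 itself, by 1.09, and Chordc1, an HSP90 partner, by 1.04. No fall was left without WT replicate 1 or EKO/hA-I replicate 3, 4 were left without EKO/hA-I replicate 1 or WT replicate 3, 5 without EKO/hA-I replicate 2, and none passed with the brown adipocyte term, where the median was -0.653.

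Among the named genes, Gmpr fell furthest after Apoe and Apoc1. This purine enzyme, abundant in brown fat, stood at 57.1, 58.4 and 31.6 in EKO/hA-I and 1012, 201 and 316 in WT and fell by 3.06 ± 0.72 (adjusted p = 0.00692), a call lost without WT replicate 1 (adjusted p = 0.0712). Rbp7, a retinol-binding protein of adipose capillaries, fell by 2.64 ± 0.56, from 28.4, 38.9 and 34.5 to 3.07, 9.13 and 3.19. Ffar4, a receptor for long-chain fatty acids on fat cells, fell by 2.60 ± 0.60, from 111, 55.2 and 79.7 to 9.05, 31.7 and 6.02. Nnmt, a methyltransferase of nicotinamide, fell by 2.30 ± 0.46, from 153, 25.6 and 27.5 to 8.44, 10.4 and 8.07. Rbp7, Ffar4 and Nnmt kept their calls without each of the 6 libraries, but Rbp7 and Ffar4 had adjusted p of 0.0817 and 0.0916 with the brown adipocyte term. Mfsd2a, Gk, Dio2 and Noct fell by 2.82, 2.19, 1.80 and 1.79, and each lost its call without WT replicate 1 and without EKO/hA-I replicate 3. Rsc1a1, at -1.87, overlaps Ddi2 and is uncertain. A gene of fat cells moved the other way. Lep, leptin, read 26.2, 29.2 and 25.3 in EKO/hA-I and 2.12, 13.3 and 8.41 in WT and rose by 1.90 (adjusted p = 0.0398), a call lost without each of 5 of the 6 libraries.

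Among the largest rises were the following genes, whose values varied widely between libraries. Eef1a2, an elongation factor of muscle and neurons, stood at 109, 55.1 and 53.6 in EKO/hA-I and 1.37, 4.98 and 1.40 in WT and rose by 4.42 ± 1.24 (adjusted p = 0.0176). Ckm, muscle creatine kinase, read 112, 501 and 6.30 against 1.67, 6.06 and 2.90 and rose by 4.15 ± 1.32 (adjusted p = 0.0332), with the highest value in the library richest in skeletal muscle genes. Kif1a, a motor protein of axons, rose by 2.90 ± 0.80, and Hand2 and Faim2, also neuronal, rose by 2.37 and 2.37. The sympathetic neuron list itself had a median of 3.479 and no call among 15 genes, and its EKO/hA-I libraries differed widely. Dbh, the enzyme that makes noradrenaline, stood at 93.4, 37.1 and 268 against 1.21, 5.89 and 0.654, a difference of 5.08 (adjusted p = 0.0728). Upk3b and Msln, markers of the mesothelial lining, rose by 3.06 and 2.58, although WT replicate 1 carried Upk3b too (52.7, 36.0 and 49.3 in EKO/hA-I and 24.3, 0.747 and 2.90 in WT). All of these calls were lost when 1 library was left out, in each case without EKO/hA-I replicate 1, with adjusted p up to 0.0847 for Eef1a2, 0.149 for Ckm and 0.179 for Msln. The skeletal muscle, cardiac muscle and neuron lists define 3 of the 4 tissue terms, so no value of theirs is given from that fit.

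**Figure D4:**
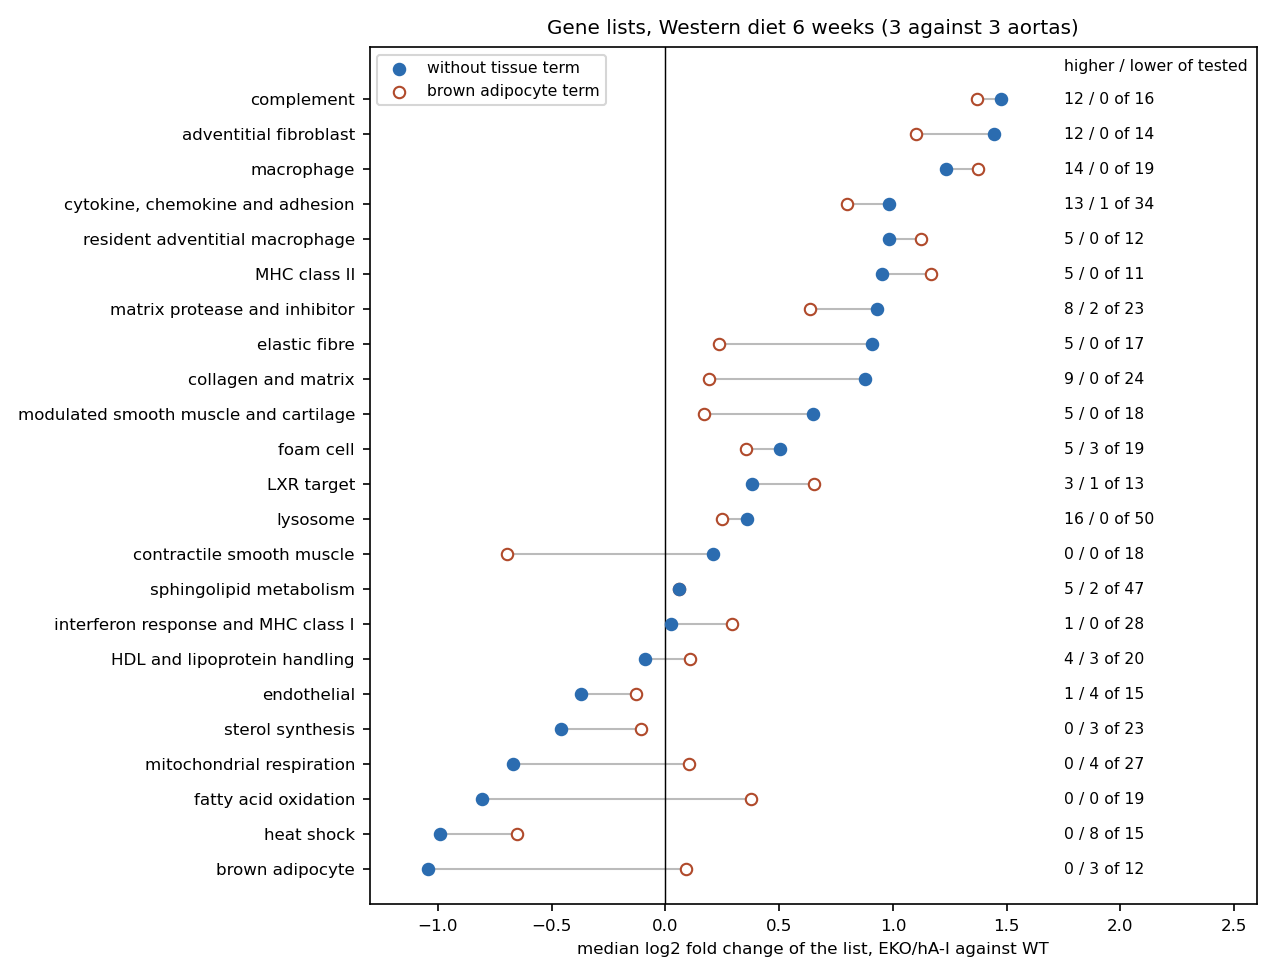
Median log2 difference of EKO/hA-I against WT for 23 gene lists, without a tissue term (filled) and with the brown adipocyte term (open), with the numbers of genes that rose and fell at the right. Complement, fibroblast and macrophage lists stay above 1 with either fit, whereas the collagen median moves from 0.879 to 0.19 and the mitochondrial median from -0.668 to 0.106. The brown adipocyte list defines the term, so its open point lies near 0 by construction.

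In the remaining lists between 0 and 4 genes passed, where 16.9% of all genes did. Of 22 oxidative stress genes 3 rose and 1 fell, and Cybb, the catalytic subunit of the phagocyte NADPH oxidase, rose by 1.95 ± 0.36 (adjusted p = 0.00142) and was stable. Of 23 TGF-beta and BMP genes 2 rose, and Tgfbr2, the type II receptor, rose by 0.92 (adjusted p = 0.00225) and was stable. Of 20 genes of nitric oxide and vascular tone 3 rose and 1 fell, with Ace, the angiotensin-converting enzyme, up by 1.56 and Cav1, the coat protein of caveolae, at -0.66. Neither Ace nor Cav1 passed without WT replicate 1. Of 20 genes of the unfolded protein response 1 rose and 3 fell, Atf4 among the falls (-0.74, adjusted p = 0.00247). Of 22 immediate early genes 1 rose, of 17 fatty acid synthesis genes 1 rose, of 15 general adipocyte genes 1 rose and 1 fell, of 12 Schwann cell genes 1 rose and of 24 cell cycle genes 1 fell. None of the 18 circadian clock, 9 erythroid, 7 mast cell and 7 platelet genes passed.

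Few genes separated EKO/hA-I from EKO. In EKO/hA-I against EKO, 10 of 14157 genes passed (0.0706%), 4 higher (0.0283%) and 6 lower (0.0424%), and 748 had an unadjusted p below 0.05 (5.28%). In EKO against WT 770 genes passed (5.44%), 558 higher (3.94%) and 212 lower (1.5%), and 3271 had an unadjusted p below 0.05 (23.1%). Both EKO/hA-I and EKO are set against the same 3 WT libraries, so their lists of calls are not independent. Side by side, the median was 1.445 in EKO/hA-I and 1.196 in EKO for fibroblast genes, 1.474 and 1.466 for complement, 1.232 and 1.259 for macrophages, and 0.357 and 0.466 for lysosomes. Of EKO/hA-I directly against EKO, those 4 medians were 0.214, 0.112, -0.018 and -0.164, and foam cell genes had -0.509, with 1 call among all these genes, Glb1. The count of 10 calls was 6 without EKO replicate 3 or EKO/hA-I replicate 1, 17 without EKO/hA-I replicate 3 and 20 with the brown adipocyte term. A p that misses the threshold with 3 libraries a group does not show that the genotypes act alike.

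Of these 10 genes, 5 lie on chromosome 9, which held 809 of the tested genes, and the mouse Apoa1 gene is on the same chromosome. Nxpe4 read 2.15, 2.33 and 2.70 in EKO/hA-I, 12.6, 11.6 and 6.84 in EKO and 11.8, 13.5 and 12.9 in WT, lower than EKO by 1.71 ± 0.28 (adjusted p = 0.00542) and than WT by 2.02 (adjusted p = 0.000167), with no overlap with either. Glb1, the lysosomal beta-galactosidase, behaved otherwise. It stood at 13.5, 23.7 and 17.2 in EKO/hA-I, 43.8, 30.6 and 36.6 in EKO and 14.2, 21.1 and 23.6 in WT, so it was lower than in EKO by 1.01 ± 0.18 (adjusted p = 0.0201) and overlapped with WT. Srprb, a subunit of the signal recognition particle receptor, differed from EKO by -0.68 (adjusted p = 0.0241). Against WT, Nxpe4 was stable. On chromosome 9, 10.8% of genes had an unadjusted p below 0.05 against EKO, where the share over all genes was 5.28%.

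Morf4l1b was placed off that chromosome by its symbol, on chromosome 19. It stood at 131, 128 and 147 in EKO/hA-I, 29.7, 23.4 and 28.3 in EKO and 25.4, 26.5 and 16.0 in WT. It was higher than in WT by 2.56 ± 0.25 (adjusted p = 5.71e-07) and than in EKO by 2.28 ± 0.25 (adjusted p = 7.82e-06), with no overlap, and it was stable against WT. Morf4l1, a chromatin protein gene of which Morf4l1b is a near-identical copy, read 204, 213 and 224 in EKO/hA-I and 296, 336 and 288 in WT, lower by 0.52 (adjusted p = 0.0137). Reads of the 2 copies can be assigned to either, so both values are uncertain. The chromosome to which the Morf4l1b difference belongs is therefore uncertain too. Entpd4, a nucleotide-splitting enzyme of the Golgi and lysosome, was lower than in EKO by 1.38 (adjusted p = 0.0201) and Lgals4, galectin-4, higher by 1.51 (adjusted p = 0.0283). Against WT neither passed, with -0.32 for Entpd4 (adjusted p = 0.391) and -0.47 for Lgals4 (adjusted p = 0.255).

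The same contrast can be made at 22 weeks on the diet and on chow. The mice kept for 22 weeks also began at 8 weeks of age, so they were older than those at 6 weeks. Duration and age therefore cannot be told apart. The difference between EKO/hA-I and WT differed between 22 and 6 weeks in 2748 genes (19.4%), 1442 with a higher value of the contrast at 22 weeks (10.2%) and 1306 with a lower one (9.23%), and 35.9% had an unadjusted p below 0.05. Brown adipocyte genes had the opposite order at 22 weeks, with library means between 8.149 and 8.465 in EKO/hA-I and between 6.992 and 7.751 in WT. With the brown adipocyte term only 1 gene passed, Slc40a1, the iron exporter ferroportin, at -3.26 ± 0.43 (adjusted p = 0.000879). Macrophage and complement medians were alike in direction at all 3 conditions, 1.232 at 6 weeks, 1.314 at 22 weeks and 0.508 on chow at 6 weeks for macrophages, and 1.474, 1.215 and 0.669 for complement. No macrophage gene passed the test of the difference with duration, and of the complement genes 1 passed with a higher and 3 with a lower contrast. Fibroblast genes had medians of 1.445, -0.297 and 0.561, with 11 of 14 lower at 22 weeks in that test and 1 higher, and collagen genes 0.879, -0.655 and 0.356, with 13 of 24 lower. Heat shock genes moved the other way, from -0.992 to 0.66, with 9 of 15 higher. The interaction count was 741 without EKO/hA-I replicate 3 and 942 without WT replicate 1 at 6 weeks, and 1062 without WT replicate 2, 1511 without EKO/hA-I replicate 2 and 1761 without EKO/hA-I replicate 1 at 22 weeks. WT replicate 3 at 22 weeks carries an EKO genotype tag under a WT title and was kept as WT.

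Diet made no difference that passed. In limma's test of the EKO/hA-I minus WT contrast on Western diet against that on chow at 6 weeks, 0 genes passed and 854 had an unadjusted p below 0.05 (6.03%). The chow arm of EKO/hA-I held 2 libraries, and no count tool was run on these values.

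**Figure D5:**
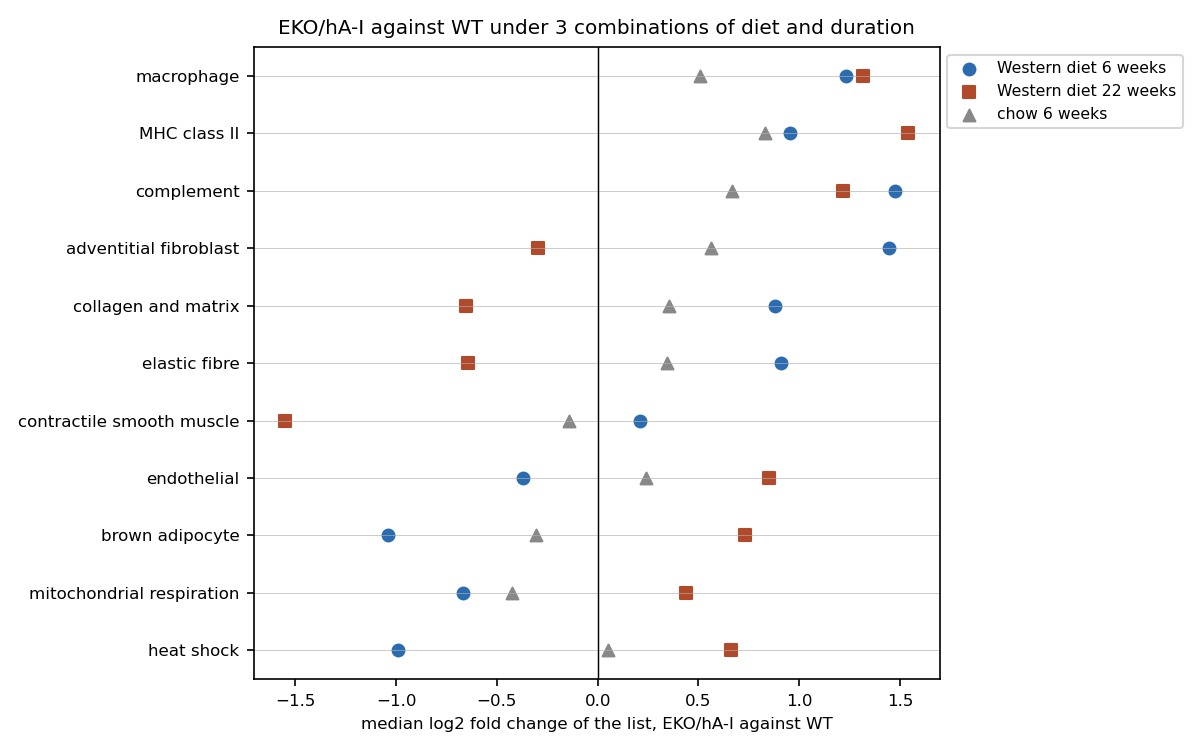
Median log2 difference of EKO/hA-I against WT for 11 gene lists after 6 weeks of Western diet, 22 weeks of Western diet and 6 weeks of chow. Macrophage and complement medians are above 0 in all 3 conditions, whereas fibroblast, collagen and elastic fibre medians are above 0 at 6 weeks and below 0 at 22 weeks, and brown adipocyte, mitochondrial and heat shock medians go from below 0 to above 0.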

How the data were processed

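RNA of 35 mouse aortas in 12 groups was sequenced, and 6 libraries carry the main comparison. The authors deposited 1 table of normalised signal per gene and library, with 14174 genes named by symbol alone. The submitters' processing notes name Bowtie 0.12.2, Bowtie2, RSEM and 2 builds (mm8, mm9) without saying what each was used for, and the normalisation is not given in the sources used here. From the values, each library looks like estimated counts divided by a factor, which would make depths comparable but would pass a change in 1 abundant tissue on to the shares of others. Between 71.48% and 82.06% of values at or below 1.5 lay within 0.02 reads of a whole number, so whole reads were not recovered and no count model was used. The 35 libraries had 6.856e+06 to 2.533e+07 inferred reads.

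Values were tested as log2(value + 1) with limma 3.58.1 in R 4.3.3 (trend, robust) in a single model of the 12 groups with no covariate. A gene entered if 3 or more libraries reached a value of 1, which kept 14157 and dropped 17. The Benjamini-Hochberg adjustment ran over all these genes for each comparison, with a threshold of 0.05. The fit was tested on simulated data. Other fits changed the pseudocount, the filter, the scaling, the libraries, the replicate block, tissue and sex terms, and the prior. Omitting the brown adipocyte extremes and omitting libraries without Y transcripts were chosen after seeing the data.

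The comparison and the 43 gene lists (795 members tested) were chosen with earlier results of these data known. Named genes are the 12 largest rises and 12 largest falls past the threshold. They had a mean log2 value of at least 3 and groups that did not overlap, so that separation is part of the choice. Predicted and segment genes were left out, and up to 4 genes per list were added by p. Genes named beyond these rules (Acta2, Tagln, Eln, C3, C1qc, Cfb, Cd68, Ctsd, Smpd1, Asah1, Abca1, Spp1, Cd36, Kdr, Cdh5, Nos3, Myh6, Morf4l1, Slc40a1 and Srprb among others) were chosen after their values were seen. In the table, 23 symbols had been turned into dates and 2 were repeated, and chromosomes were found by symbol in GRCm38.p6 for 14111 genes. Replicate numbers were not used to pair the libraries in the main fit, and the labels do not say what they mark.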

Additional observations from a re-analysis of the deposited data

Results flagged for a closer look

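The difference between EKO/hA-I and WT differed between 22 and 6 weeks of the Western diet in 2748 genes by limma's interaction test, and 17 of the genes named for the 6-week comparison or for this interaction were among them. Values here are the log2 difference at 22 weeks minus that at 6 weeks, and the mice at 22 weeks were also older. The contrast was higher at 22 weeks for these genes: Mfsd2a by 6.96, Rbp7 by 4.65, Cyp2b10 by 4.33, Ffar4 by 4.20, Gmpr by 4.09, Dio2 by 3.74, Gk by 3.63 and Noct by 3.52. Mfsd2a, a lysolipid transporter, stood at 0.72, 0.764 and 4.78 in WT and 36.3, 56.4 and 44.1 in EKO/hA-I at 22 weeks. The contrast of Timp4, the protease inhibitor, was higher by 3.39 and that of Apoc1 by 2.15. Apoc1 stayed below WT at 22 weeks, with a log2 difference of -1.27. The contrast was lower for the matrix genes Spock2 (-2.40) and Fbln1 (-2.26), whose log2 differences at 22 weeks were 0.21 and 0.29. It was also lower for the RNA-binding protein gene Bicc1 (-2.68), Lep (-3.97) and Wif1 (-3.34), an inhibitor of Wnt. The airway secretory genes Scgb1a1 (-3.80) and Bpifa1 (-3.19) had a lower contrast too. Brown adipocyte genes had lower signal in EKO/hA-I libraries at 6 weeks, against WT, and higher signal at 22 weeks, and with their mean as a term 1 interaction call was left, so genotype and duration cannot be told apart from brown adipocyte signal in these 17 genes.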

How the results depend on the processing

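The main count of 2388 genes stayed within 1.5 times with pseudocounts of 0.1 or 5, other filters, median-ratio rescaling, a sex term, the 17 libraries at 6 weeks and another prior. It was 671 in the 6 libraries alone (554 higher, 117 lower), 603 with the brown adipocyte term (327 and 276), 328 with brown adipocyte and skeletal muscle terms (194 and 134) and 430 with 4 tissue terms (315 and 115). Without the brown adipocyte extremes (WT replicate 1 and EKO/hA-I replicate 3) it was 233, and in the libraries with Y-linked transcripts 848, both chosen after seeing the data. Leaving out 1 library gave 572 to 2368. The replicate block gave 65 in the 6 libraries and 2504 in all. Same-numbered residuals correlated at -0.078, -0.366 and 0.013, so no pairing by number was seen. With 3 such values pairing could not be tested well, and the labels do not say what the numbers mark. The counts of 770 in EKO against WT, 10 in EKO/hA-I against EKO and 2748 for duration were 222, 20 and 1 with the brown adipocyte term, and 63 to 1127, 6 to 17 and 741 to 3249 without 1 library. For EKO against WT the lowest were 63 without EKO replicate 1 and 73 without WT replicate 1, with 358 without WT replicate 2 and 433 without EKO replicate 3. The diet count was 0 under all settings run. No direction of a called single gene reversed. Of 114 called named genes, 38 kept their call with the brown adipocyte term and 76 did not. The cause was not tested. With 3 libraries a group and an unstated normalisation, small differences and shares between tissues are limited.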
